A study of Mus musculus with 68 samples.

Results

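The trophectoderm (TE) of mouse SCNT blastocysts was compared with the SCNT morula from which it forms. The members are the 12 RNA libraries whose labels name these stages, 6 of NT-TE and 6 of NT-Morula, of 68 libraries in the series, and the comparison runs across all genes of the reference annotation. SCNT (somatic cell nuclear transfer, NT in the labels) places the nucleus of a body cell in an egg without its own nucleus. Here cumulus cells of the follicle gave the nuclei and BDF1 mice (B6D2F1 in the study's methods, hybrids of C57BL/6j mothers and DBA/2 fathers), aged 8 to 10 weeks, gave the oocytes. The MII oocytes were enucleated in cytochalasin B, injected with a donor cell and activated in SrCl2 with cytochalasin B. The constructs then grew in G-1 PLUS medium, and all 12 libraries are labelled untreated, so both stages share donor, activation and culture. At E4 the TE cells were picked off the blastocyst with needles, by their outer position, smooth surface and larger size, and cells of unclear appearance were discarded. Each library was made from 10 blastomeres by Smart-seq2, which copies polyadenylated RNA. The protocol speaks of 3 replicates per stage while 6 libraries per stage are listed. The study describes SCNT RNA samples as biologically independent, and the labels do not say which embryos gave which library. The study followed H3K9me3, a repressive histone mark, through the early development of SCNT embryos, and asked how it is deposited as ICM (inner cell mass) and TE part.

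The TE is the first epithelium of the embryo. Outer cells of the compacted morula become polarised, keep the kinase cascade of the Hippo pathway off and let YAP enter the nucleus, where with TEAD4 it turns on Cdx2. Cdx2, Gata3, Eomes and Tfap2c then hold the TE programme in place, and the inner cells keep Pou5f1, Sox2 and Nanog. The new epithelium builds keratin filaments, tight junctions and desmosomes, pumps sodium and water into the blastocoel, takes up nutrients and later attaches to the uterus and founds the placenta.

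The level of a gene is given in TPM (a share of the reads corrected for transcript length) as deposited, and a value at 0 is a gene listed at 0, which in libraries of 10 cells can be a missed gene. The morula libraries held 2.92 to 4.22 aligned gigabases and 9165 to 10509 genes at 1 TPM or more. TE replicates 1 to 3 stood apart from TE replicates 4 to 6. The former held 2.15 to 2.58 gigabases and 8401 to 8728 genes at 1 TPM or more. The latter held 3.87 to 4.28 gigabases and 9284 to 9812 genes. As a percentage of the TPM sum of assembled loci without a gene name, annotated genes summed to 81.5% to 82.8% in replicates 1 to 3. In replicates 4 to 6 they summed to 89.9% to 90.9%. Morula replicates 2 and 3 were least like the others of their stage, with a mean Pearson r of 0.907 and 0.902 on log2(TPM + 1), while the other 4 lay between 0.933 and 0.937. Counts are therefore also given from replicates 1 to 3 alone and from 4 to 6 alone where these part.

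Between morula and TE, rises and falls were nearly equal in number. Of 10398 genes with a mean of at least 1 TPM, 1316 were higher and 1286 lower in TE by at least 2-fold with a Benjamini-Hochberg adjusted p under 0.05 in limma, 12.7% and 12.4% of the genes tested. In 743 genes (7.15%) all 6 TE libraries lay above all 6 morula libraries, and in 855 (8.22%) all lay below. Of the called genes 665 of the higher and 728 of the lower had groups that did not overlap. The median log2 fold change over all genes was -0.026. A TE library stood at 0 TPM in 371 of the lower genes and in 30 of the higher ones. In libraries of pooled cells, fewer cells with a transcript and less of it per cell cannot be told apart.

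The balance between rises and falls differed with the replicates. Replicates 1 to 3 alone gave 825 higher and 1308 lower genes, with a median log2 fold change of -0.30 over all genes tested, and replicates 4 to 6 alone gave 1877 higher and 907 lower, with a median of 0.31. Of the 2133 genes called among replicates 1 to 3, 2081 were tested among replicates 4 to 6, 1801 had the same sign there, 989 (46.4%) were called the same way and 28 the opposite way. The 989 were 35.5% of the 2784 genes called among replicates 4 to 6. A term for the difference between the 2 sets of replicates passed an adjusted p of 0.05 in 353 genes (3.39% of 10398), of which 281 had the more positive change in replicates 4 to 6 and 72 the more negative. With quantile normalization 139 were more positive and 181 more negative. Without morula replicate 2 the comparison called 1234 genes higher and 1090 lower, and without morula replicate 3 it called 1337 and 1165.

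**Figure D1:**
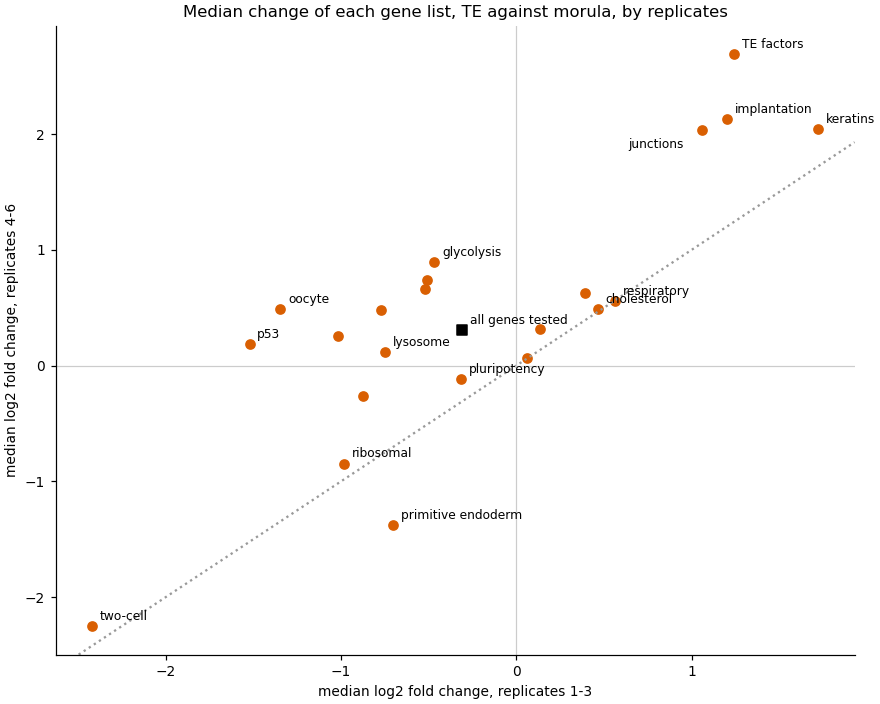
Median log2 fold change from morula to TE of each gene list with at least 5 tested members (circles) and of all genes tested (square), in replicates 1 to 3 (horizontal) and replicates 4 to 6 (vertical), with the dotted line marking equal values. Lists of the TE programme lie to the upper right, with medians of 1.24 and 2.69 for TE transcription factors, and genes tested in both sets and in all 12 libraries lie at -0.31 and 0.31.

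Of the 3 markers used to check the label, Gata3 and Krt8 rose in TE and Cdx2 did not pass the test. Here and below, 3 TPM values in a row are the lowest, median and highest of 6 libraries, and where 2 such sets are joined without a stage the morula stands first. Gata3, a zinc finger factor of the TE, stood at 51.0, 126 and 186 TPM in the morula and at 340.4, 727 and 1016 TPM in TE. Every TE library was above every morula library (log2 fold change 2.54 ± 0.33, adjusted p = 3.3e-05; errors of fold changes are standard errors). Krt8, a keratin of simple epithelia, stood at 55.3, 231 and 457 TPM in the morula and at 1455, 3845 and 6849 TPM in TE. Again no TE library overlapped the morula (log2 fold change 4.18 ± 0.48, adjusted p = 9.7e-06). Cdx2, the homeobox factor that defines the TE, was low and uneven, at 0.348, 3.87 and 12.6 TPM in the morula and 1.14, 10.6 and 33.1 TPM in TE. Only the 3 TE libraries of replicates 4 to 6, at 31.0, 13.7 and 33.1 TPM, exceeded all morula libraries, while replicates 1 to 3 held 1.14, 7.48 and 3.004 TPM. Its change over all 12 libraries was 1.22 ± 0.71 (adjusted p = 0.216), -0.24 among replicates 1 to 3 and 2.67 among replicates 4 to 6, where it passed (adjusted p = 0.00249).

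Some markers of other cells were near 0 in TE and others were present. Sox2, a factor of the ICM, was at 0 to 0.577 TPM and Fgf4, a growth factor made by the ICM, at 0 to 0.4703 TPM. Nanog, another ICM factor, was present, at 32.3, 91.8 and 172 TPM in TE against 3.77, 54.6 and 148 TPM in the morula (adjusted p = 0.28), and Pou5f1 was at 15.8 to 50.1 TPM in TE. Summed over the list of pluripotency and ICM genes the level was 12939 to 21330 TPM in the morula, 15422 to 25450 TPM in TE and 21261 to 26503 TPM in ICM. In TE most of this sum came from Dppa5a and Dppa3, so it says little about the other members. Of the 18 members tested 2 rose and 5 fell from morula to TE (median log2 fold change -0.49). The primitive endoderm markers Gata4, Sox17 and Pdgfra stayed at or below 0.0984, 0.3598 and 2.89 TPM in every TE library, while Gata6 and Sparc had medians of 12.3 and 29.1 TPM there. Of the cumulus markers, Fshr was listed at 0 in all 12 libraries and Star reached 2.39 TPM. Cyp11a1, a steroid enzyme, was at 0 to 59.96 TPM in TE, highest in replicates 4 and 6, and at 0.0712 to 6.61 TPM in the morula (adjusted p = 0.273). Of 16 cumulus genes 2 reached the mean of 1 TPM, and neither passed. The other was Gja1, a gap junction protein that embryos also use, at 247 to 874 TPM in the morula and 145 to 992 TPM in TE. Summed over the cumulus list the level was 248 to 875 TPM in the morula, 205 to 994 TPM in TE and 4363 to 4796 TPM in cumulus cell libraries of the series. Inha, Inhba, Lhcgr, Has2, Ptx3, Amh and Nr5a1 were listed at 0 in all 12 libraries. The primitive endoderm list summed to 51.6 to 80.6 TPM in the morula, 31.3 to 92.8 TPM in TE and 57.2 to 242 TPM in ICM. The part of such cells in any result was not tested.

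**Figure D2:**
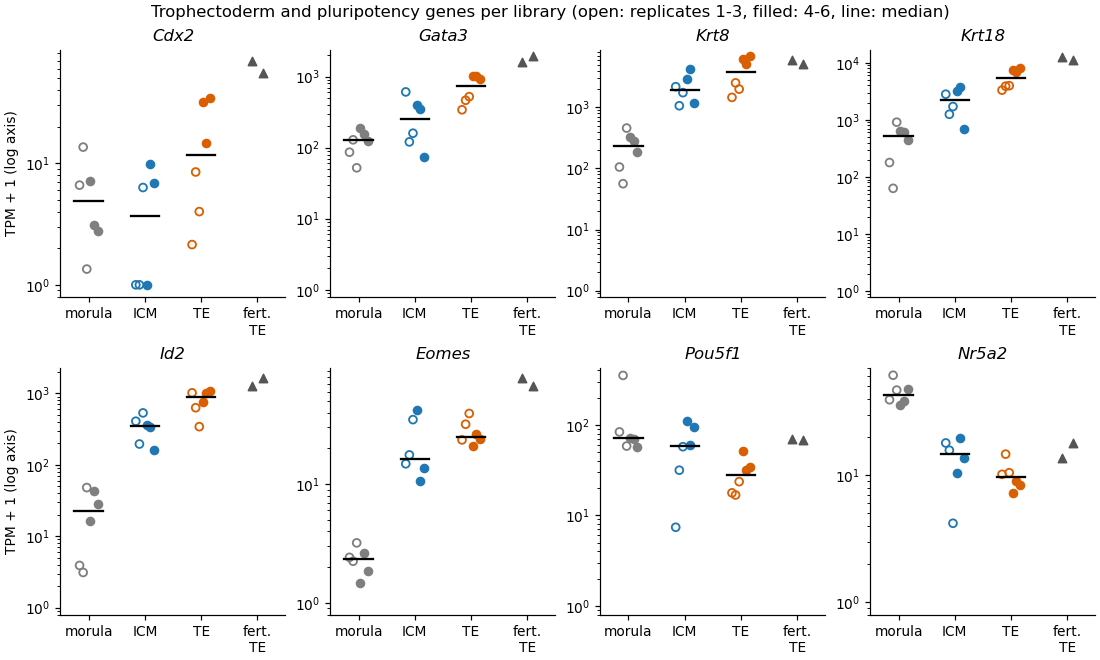
TPM + 1 on a log axis in each SCNT library of morula, ICM and TE, with open circles for replicates 1 to 3, filled circles for replicates 4 to 6 and a line at the median, and triangles for 2 TE libraries of fertilized control blastocysts of another experiment. Gata3, Krt8, Krt18, Id2 and Eomes lie higher in every TE library than in any morula library, Cdx2 overlaps, and Pou5f1 and Nr5a2 lie lower.

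To show the sequence behind 4 of the genes that rose without overlap, the 250 bases before their start sites are printed from the RefSeq promoter table of GRCm38.p6 (the same assembly as mm10, used for the files), on the gene's own strand. Krt8 and Krt18, the partner keratins of simple epithelia, lie near each other on chromosome 15 and are transcribed in opposite directions, at 101996711-102004342 and 102028216-102032026. Gata3 is a marker and a TE factor, while Cdx2, the other marker among these factors, overlapped between the stages and is not shown. Dppa1 is among the 10 largest rises. Capitals mark letters that match 1 of 4 motifs searched on both strands. The letters GGAATG stand for the TEAD partners of YAP. The letters AGATAA stand for the zinc finger factors of the family of Gata3. The letters GCCNNNGGC stand for AP-2 factors such as Tfap2c. The letters CACGTG stand for the E-box that MYC and MAX bind.
Gata3 (chr2:9878601-9878850, minus strand): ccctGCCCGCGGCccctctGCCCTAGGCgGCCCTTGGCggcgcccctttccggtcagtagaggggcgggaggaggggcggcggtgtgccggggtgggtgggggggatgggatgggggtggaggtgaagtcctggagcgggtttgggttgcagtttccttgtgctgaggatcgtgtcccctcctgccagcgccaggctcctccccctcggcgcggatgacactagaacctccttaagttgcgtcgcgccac
Krt8 (chr15:102004343-102004592, minus strand): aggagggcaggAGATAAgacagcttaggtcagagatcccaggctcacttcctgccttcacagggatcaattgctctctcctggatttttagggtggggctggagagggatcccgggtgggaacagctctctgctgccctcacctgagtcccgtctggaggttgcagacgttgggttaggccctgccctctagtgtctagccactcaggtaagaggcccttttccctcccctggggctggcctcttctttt
Krt18 (chr15:102027966-102028215, plus strand): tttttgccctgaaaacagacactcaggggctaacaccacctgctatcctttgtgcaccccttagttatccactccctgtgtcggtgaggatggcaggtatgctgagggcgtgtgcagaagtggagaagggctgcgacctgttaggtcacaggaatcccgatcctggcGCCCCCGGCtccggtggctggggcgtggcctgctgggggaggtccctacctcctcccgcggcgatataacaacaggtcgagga
Dppa1 (chr11:46629275-46629524, minus strand): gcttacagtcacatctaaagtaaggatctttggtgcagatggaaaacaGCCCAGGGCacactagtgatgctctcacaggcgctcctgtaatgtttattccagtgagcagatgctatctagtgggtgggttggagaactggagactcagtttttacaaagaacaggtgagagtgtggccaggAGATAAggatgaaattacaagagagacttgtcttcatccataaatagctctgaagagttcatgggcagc
Gata3 held the AP-2 letters at 3 places, Krt18 at 1 and Dppa1 at 1, and the GATA letters stood once each in Krt8 and Dppa1. TEAD and E-box letters were in none of the 4 stretches shown. Among all 32851 windows of 300 bases in the table, which also hold the first 50 bases of the transcript, 14.7% held the TEAD letters, 11.2% the GATA letters, 16.6% the AP-2 letters and 7.15% the E-box. A window was matched to 7819 of the 10398 genes tested by symbol, 75.2%, too few for a comparison of the genes that rose and fell. A match of letters is a description and not a site.

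Most transcription factors of the TE programme rose. Of 18 on the list 15 were tested, 9 rose and 1 fell, against 12.7% and 12.4% of all genes, and the median log2 fold change was 2.15 against -0.026 for all genes. Replicates 1 to 3 gave 7 higher and 1 lower, and replicates 4 to 6 gave 12 and 1. Id2, an inhibitor of helix-loop-helix factors that marks outer cells, stood at 2.11, 21.3 and 47.0 TPM in the morula and 341, 892 and 1089 TPM in TE. It had the largest rise of the list, with no overlap (log2 fold change 5.65 ± 0.61, adjusted p = 5.3e-06). Eomes, a T-box factor needed by trophoblast, went from 0.485, 1.33 and 2.204 TPM to 20.03, 24.1 and 38.3 TPM. Its groups did not overlap and its change was alike in both sets of replicates, 3.58 and 3.61 (log2 fold change 3.59 ± 0.34, adjusted p = 1.6e-06). Gata2, a relative of Gata3, stood at 0, 0.394 and 2.67 TPM and 4.87, 13.2 and 45.6 TPM, without overlap (log2 fold change 3.46 ± 0.53, adjusted p = 0.00014). Msx2, a homeobox factor, moved from a median of 0.928 to 26.7 TPM (log2 fold change 3.81 ± 0.50, adjusted p = 3.2e-05). The member that fell was Hand1, a factor of later giant cells, from 3.46, 7.68 and 149 TPM to 0.387, 0.424 and 1.67 TPM, with the highest morula values in replicates 2 and 3 (log2 fold change -3.39 ± 0.76, adjusted p = 0.00303). The 2 most abundant members that did not pass overlapped between the stages. Klf5, a zinc finger factor of the early blastocyst, stood at 25.0, 49.2 and 104 TPM and 46.3, 79.5 and 134 TPM (log2 fold change 0.72 ± 0.33, adjusted p = 0.115). Tfap2c, an AP-2 factor, stood at 32.5, 51.6 and 139.5 TPM and 13.3, 76.2 and 132 TPM, with a change of 0.12 ± 0.49 (adjusted p = 0.88) that was -0.84 in replicates 1 to 3 and 1.07 in replicates 4 to 6.

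**Figure D3:**
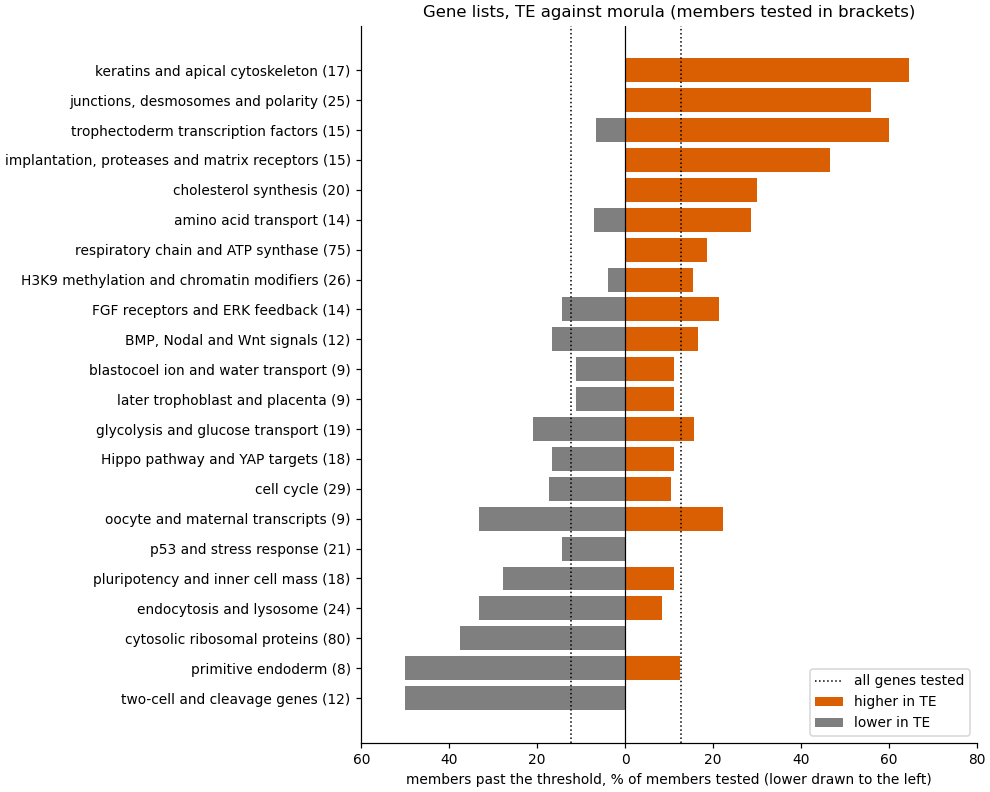
Share of the tested members of each gene list that were higher (orange, right) or lower (grey, left) in TE than in the morula by at least 2-fold with an adjusted p under 0.05, with the number of tested members in brackets and dotted lines at the shares of all genes tested. Keratins, junctions and TE transcription factors have the highest shares to the right, and 2-cell, primitive endoderm and ribosomal protein genes have the highest to the left. The cumulus list, with 2 tested members, is not drawn.

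Genes of the epithelial cytoskeleton rose together. Of 18 keratin and apical cytoskeleton genes 17 were tested, 11 rose and 0 fell (median log2 fold change 1.78). The rises were 64.7% against 12.7% of all genes, and the falls 0% against 12.4%. In replicates 1 to 3, 8 rose and 1 fell, and in replicates 4 to 6, 13 rose. Krt18, which pairs with Krt8 in filaments, was at 62.04, 522 and 908 TPM in the morula and at 3309, 5458 and 8221 TPM in TE. The groups did not overlap (log2 fold change 3.93 ± 0.51, adjusted p = 2.9e-05). Lcp1, an actin-bundling protein of microvilli, was nearly silent before, at 0.0264, 0.0983 and 0.318 TPM, and reached 9.24, 13.99 and 19.1 TPM (log2 fold change 3.69 ± 0.34, adjusted p = 1.1e-06). Slc9a3r1, a scaffold of the apical membrane, moved from 3.39, 9.21 and 12.3 TPM to 29.7, 153 and 289.6 TPM (log2 fold change 3.49 ± 0.57, adjusted p = 0.00024). Its rise was 2.38 in replicates 1 to 3 and 4.59 in replicates 4 to 6, a difference that passed (adjusted p = 0.0389). Anxa2, a membrane-binding protein, was abundant at both stages, at medians of 1003 and 787 TPM (log2 fold change -0.17 ± 0.24, adjusted p = 0.655). Actb, the actin of the cytoskeleton outside the list, had the highest mean level of all genes in TE, with 10447, 14572 and 23281 TPM against 1333, 2785 and 3487 TPM in the morula (log2 fold change 2.61 ± 0.26, adjusted p = 2.2e-06). The other genes among the 5 highest were Ftl1, an iron storage protein, Dppa5a, Ubb, a ubiquitin precursor, and Gm1821. Ftl1 stood at 11612, 12332 and 15181 TPM and did not pass (log2 fold change 0.50 ± 0.20, adjusted p = 0.0721). Ubb stood at 8555, 11572 and 14536 TPM (log2 fold change 1.42 ± 0.17, adjusted p = 1.4e-05). Gm1821, a predicted gene, had levels close to those of Ubb in every library, 9074, 12408 and 14949 TPM (log2 fold change 1.36 ± 0.17, adjusted p = 2.5e-05), and reads of near-identical ubiquitin copies may be split between them.

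Junction genes formed the second epithelial set. All 25 members of the junction, desmosome and polarity list were tested, 14 rose and 0 fell (median 1.29). The rises were 56% against 12.7% of all genes, and the falls 0% against 12.4%. Replicates 1 to 3 gave 10 rises and replicates 4 to 6 gave 17. Cldn3, a tight junction claudin, stood at 0, 1.26 and 2.34 TPM in the morula and 18.1, 68.9 and 227 TPM in TE. It was the largest rise of the list (log2 fold change 5.29 ± 0.57, adjusted p = 5.6e-06). Epcam, an epithelial adhesion molecule, had narrow and well separated groups, 101, 111 and 144 TPM and 831, 1245 and 1340 TPM (log2 fold change 3.30 ± 0.17, adjusted p = 2.9e-09). The desmosomal cadherins Dsc2 and Dsg2 appeared together. Dsc2 went from 0.107, 0.2695 and 1.61 TPM to 14.7, 23.7 and 32.6 TPM (log2 fold change 4.15 ± 0.37, adjusted p = 8.8e-07), and Dsg2 from 0.134, 0.758 and 0.885 TPM to 8.33, 11.5 and 22.8 TPM (log2 fold change 3.04 ± 0.37, adjusted p = 1.5e-05). Among the members that did not pass was F11r, the adhesion molecule JAM-A, at medians of 80.3 and 199 TPM (log2 fold change 0.99 ± 0.40, adjusted p = 0.0689). It was -0.26 in replicates 1 to 3 and 2.25 in replicates 4 to 6, a difference that passed (adjusted p = 0.0137). F11r passed when morula replicate 2 (1.22, adjusted p = 0.0259), TE replicate 1 (1.14, adjusted p = 0.0487) or TE replicate 3 (1.25, adjusted p = 0.0177) was left out.

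Among genes of the pump and the water channels of the blastocoel, 9 of 16 were tested, 1 rose and 1 fell. That is 11.1% each way, near the 12.7% and 12.4% of all genes (median -0.44). Replicates 1 to 3 gave 1 rise and 3 falls, and replicates 4 to 6 gave 1 and 1. Atp1b1, the beta subunit of the sodium pump, stood at 14.6, 34.3 and 60.2 TPM in the morula and 79.5, 173 and 194 TPM in TE, without overlap (log2 fold change 2.16 ± 0.32, adjusted p = 9.1e-05). Its relative Atp1b3 stood at 89.3, 153 and 239 TPM and 51.6, 97.5 and 114 TPM and did not reach 2-fold (log2 fold change -0.76 ± 0.26, adjusted p = 0.0373). Aqp3, a water and glycerol channel, stood at 14.01, 88.8 and 369.5 TPM and 31.4, 60.9 and 108 TPM (log2 fold change -0.44 ± 0.55, adjusted p = 0.59). Aqp9, a channel for water and small solutes, was lower in TE, at 14.2, 35.1 and 57.7 TPM against 43.9, 66.0 and 132 TPM (log2 fold change -1.08 ± 0.36, adjusted p = 0.0328), with -2.12 in replicates 1 to 3 and -0.037 in replicates 4 to 6, a difference that passed (adjusted p = 0.0307). This call was lost when any one of morula replicates 1 (-1.06, adjusted p = 0.0604), 2 (-0.89, adjusted p = 0.0763) and 3 (-1.02, adjusted p = 0.0619) or TE replicates 1 (-0.86, adjusted p = 0.0692), 2 (-1.06, adjusted p = 0.0526) and 3 (-0.96, adjusted p = 0.0678) was left out.

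The 10 largest rises without overlap were led by Adh1, an alcohol dehydrogenase that oxidises retinol. It stood at 2.14, 11.4 and 14.02 TPM in the morula and 874, 1449 and 2259 TPM in TE (log2 fold change 7.37 ± 0.42, adjusted p = 5.1e-09). Lgals1, the sugar-binding lectin galectin-1, stood at 0.865, 12.3 and 20.4 TPM and 769.5, 1384 and 2285 TPM (log2 fold change 7.31 ± 0.53, adjusted p = 9.8e-08). For both genes the lowest TE library lay far above the highest morula library. Slc15a2, a peptide transporter, moved from 0.136, 0.9402 and 4.08 TPM to 211, 275 and 323 TPM (log2 fold change 7.06 ± 0.38, adjusted p = 3.8e-09). Dppa1, a gene first found in pluripotent cells, stood at 3.18, 10.7 and 23.6 TPM and 774, 1074 and 1643 TPM (log2 fold change 6.78 ± 0.38, adjusted p = 4.2e-09). Tspan8, a tetraspanin of epithelial membranes, moved from 8.07, 16.8 and 26.1 TPM to 1067, 1281 and 2020 TPM (log2 fold change 6.41 ± 0.28, adjusted p = 6.9e-10), with 7.16 in replicates 1 to 3 and 5.65 in replicates 4 to 6. Tspan8 and Dppa1 rose more in replicates 1 to 3 than in replicates 4 to 6, and for Tspan8 that difference passed (adjusted p = 0.0362). Tmsb4x, an actin-monomer binding peptide, moved from a median of 16.6 to 615 TPM (log2 fold change 6.08 ± 0.59, adjusted p = 1.8e-06). Fam213b, a prostamide synthase, moved from 8.22 to 291 TPM (log2 fold change 5.78 ± 0.53, adjusted p = 1.1e-06) and Cib2, a calcium-binding protein, from 0.342 to 87.5 TPM (log2 fold change 5.50 ± 0.44, adjusted p = 3.2e-07). Id2 and Cldn3, described above, complete the 10. At 8C, Adh1, Lgals1 and Tspan8 were at medians of 9.09, 6.82 and 14.7 TPM, near their level in the morula.

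**Figure D4:**
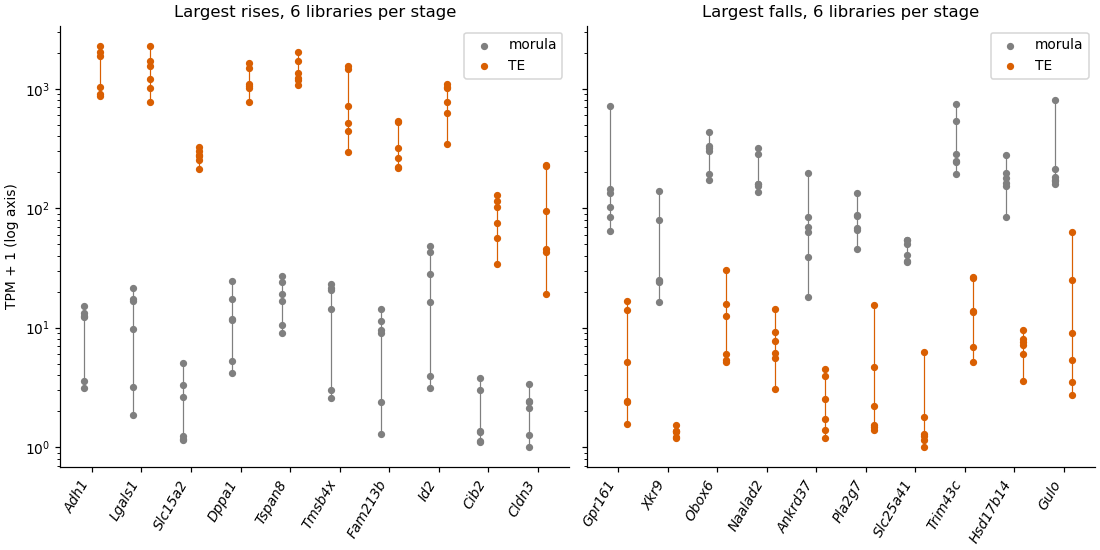
TPM + 1 on a log axis in each of the 6 morula (grey) and 6 TE (orange) libraries for the 10 largest rises and the 10 largest falls among called genes without overlap and with a mean of at least 20 TPM at the higher stage. The points are single libraries and the lines span each stage.

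Where cleavage-stage genes changed, they fell. Of 12 tested of 20 genes of the 2-cell and cleavage list, 0 rose and 6 fell (median -1.82), and 5 fell in either set of replicates alone. Over all 12 libraries the falls were 50% against 12.4% of all genes, and the rises 0% against 12.7%. Obox6, a homeobox gene of cleavage embryos, was at 1124, 1401 and 1519 TPM at 8C, 171, 309.7 and 429 TPM in the morula and 4.199, 8.202 and 29.2 TPM in TE. Each stage lay below the one before it without overlap (log2 fold change -4.80 ± 0.42, adjusted p = 6.9e-07 from morula to TE). Cited1, a transcriptional coregulator, went from 174, 401 and 638 TPM to 4.13, 18.4 and 26.9 TPM (log2 fold change -4.50 ± 0.41, adjusted p = 1.1e-06). Both belong to the strongest falls of the list, while Sp110, a nuclear body protein, was at medians of 78.4 and 17.4 TPM (log2 fold change -2.67 ± 0.49, adjusted p = 0.00068) and Arg2, an arginase, at 11.96 and 0.366 TPM (log2 fold change -2.88 ± 0.75, adjusted p = 0.00855). Obox6 has close relatives in the genome, so that its reads may be shared with other copies.

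The other 9 of the 10 largest falls lay outside that list. Trim43c, of a ubiquitin ligase family active in cleavage, was at 192, 264 and 739 TPM and 4.14, 12.6 and 25.3 TPM (log2 fold change -4.69 ± 0.43, adjusted p = 1.2e-06), and its reads may be shared with near-identical copies. Gpr161, a receptor of the primary cilium that restrains Hedgehog signalling, stood at 63.5, 117 and 722 TPM in the morula and 0.545, 2.79 and 15.8 TPM in TE (log2 fold change -4.90 ± 0.65, adjusted p = 3.6e-05). Naalad2, a peptidase, stood at 136, 158 and 319.9 TPM and 2.05, 5.93 and 13.4 TPM (log2 fold change -4.79 ± 0.36, adjusted p = 1.6e-07). Hsd17b14, a steroid dehydrogenase, stood at 83.5, 169.5 and 278 TPM and 2.57, 6.35 and 8.61 TPM (log2 fold change -4.63 ± 0.32, adjusted p = 7.7e-08). Naalad2 and Hsd17b14 were already high at 8C, with medians of 149.8 and 288 TPM, while Gpr161 was at 29.8 TPM there. Gulo, the last enzyme of vitamin C synthesis, fell from a median of 175 to 6.195 TPM (log2 fold change -4.59 ± 0.66, adjusted p = 7.6e-05), with its highest value in replicate 2 as for Gpr161, and Pla2g7, which cleaves platelet-activating factor, from 75.97 to 0.882 TPM (log2 fold change -4.76 ± 0.54, adjusted p = 8e-06). Slc25a41, a mitochondrial carrier, fell from 44.6 to 0.2696 TPM (log2 fold change -4.75 ± 0.44, adjusted p = 1.2e-06). In each of these genes the lowest morula library was above the highest TE library. Xkr9, a membrane scramblase relative, fell from 15.4, 23.7 and 137 TPM to 0.188, 0.3496 and 0.542 TPM (log2 fold change -4.81 ± 0.49, adjusted p = 3.3e-06) and Ankrd37, a hypoxia-responsive ankyrin protein, from 65.5 to 1.13 TPM (log2 fold change -4.77 ± 0.53, adjusted p = 6.6e-06).

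A few genes switched from absent to present. Under 1 TPM in every morula library and at least 5 TPM in every TE library were 5 genes, a rule and genes chosen after the values were seen. Beside Dsg2 and Lcp1 they were Enpp1, Nxf7 and Tmprss2. Tmprss2, a serine protease of epithelial surfaces, stood at 0, 0.1397 and 0.702 TPM in the morula and 13.7, 31.2 and 66.8 TPM in TE (log2 fold change 4.64 ± 0.46, adjusted p = 2.3e-06). Nxf7, of the family of mRNA export factors, stood at 0, 0.0656 and 0.248 TPM and 9.09, 15.7 and 24.2 TPM (log2 fold change 3.88 ± 0.36, adjusted p = 1.2e-06). Enpp1, an ectoenzyme that makes pyrophosphate, stood at 0.0136, 0.0638 and 0.691 TPM and 5.05, 9.96 and 17.3 TPM (log2 fold change 3.20 ± 0.38, adjusted p = 1.4e-05). In the reverse direction 13 genes went from at least 5 TPM in every morula library to under 1 TPM in every TE library, Xkr9 among them.

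Several genes that serve implantation rose without a fall in the list. Of 15 tested of 24 in the list of implantation, proteases and matrix receptors, 7 rose and 0 fell (median 1.51). The rises were 46.7% against 12.7% of all genes, and the falls 0% against 12.4%. Replicates 1 to 3 gave 5 rises and replicates 4 to 6 gave 7. Sdc4, a heparan sulfate proteoglycan of the cell surface, stood at 86.98, 238 and 292 TPM in the morula and 1141, 2094 and 3208 TPM in TE, without overlap (log2 fold change 3.29 ± 0.30, adjusted p = 1e-06). Spp1, the secreted integrin ligand osteopontin, stood at 23.03, 36.3 and 60.9 TPM and 104, 593 and 1179 TPM (log2 fold change 3.76 ± 0.46, adjusted p = 1.6e-05). Lgals3, galectin-3, moved from a median of 9.59 to 78.04 TPM (log2 fold change 2.66 ± 0.49, adjusted p = 0.00064), and Lgals1 belongs to the same list. Of the later trophoblast and placenta genes, 9 of 18 were tested, 1 rose and 1 fell (median -0.073). These shares, 11.1% each way, were near the 12.7% and 12.4% of all genes. Replicates 1 to 3 gave 1 rise and 2 falls, and replicates 4 to 6 gave 2 and 0. Plac1, an X-linked gene of the placenta, stood at 0, 2.42 and 18.3 TPM and 16.4, 71.5 and 146 TPM and overlapped by a small margin (log2 fold change 4.04 ± 0.62, adjusted p = 0.00013).

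Of 22 pluripotency and ICM genes 18 were tested, 2 rose and 5 fell (median -0.49). The rises, 11.1%, were near the share of all genes (12.7%), and the falls were 27.8% against 12.4%. Replicates 1 to 3 gave 2 rises and 6 falls, and replicates 4 to 6 gave 3 and 4. Pou5f1, the factor Oct4, stood at 55.7, 70.03 and 351 TPM in the morula and 15.8, 26.7 and 50.1 TPM in TE. All TE libraries were lower, by -1.72 ± 0.42 (adjusted p = 0.00575), with -2.65 and -0.79 in the 2 sets of replicates, and the highest morula value came from replicate 2. Nr5a2, an orphan nuclear receptor upstream of Oct4, stood at 34.5, 42.02 and 60.2 TPM and 6.25, 8.62 and 13.7 TPM (log2 fold change -2.18 ± 0.28, adjusted p = 3.1e-05). Its fall was alike in both sets of replicates, -2.06 and -2.30. Klf2, a zinc finger factor of naive pluripotency, moved from a median of 13.6 to 2.88 TPM (log2 fold change -2.20 ± 0.54, adjusted p = 0.00582) and Tbx3, a T-box factor, from 16.2 to 4.598 TPM (log2 fold change -2.03 ± 0.56, adjusted p = 0.0115). In the other direction Dppa5a, an RNA-binding protein of pluripotent cells, stood at 2388, 3955 and 5313 TPM and 9499, 10642 and 15750 TPM (log2 fold change 1.62 ± 0.20, adjusted p = 1.8e-05). Sall4, a zinc finger factor, stood at 88.9, 116 and 139 TPM and 117, 314 and 515 TPM (log2 fold change 1.21 ± 0.35, adjusted p = 0.0147). Both rose more in replicates 1 to 3, by 2.18 against 1.06 for Dppa5a and by 2.02 against 0.39 for Sall4, and these differences passed (adjusted p = 0.0364 and 0.0222). Dppa3, the maternal factor Stella, kept 4544, 7273 and 8294 TPM in TE and was lower without reaching 2-fold (log2 fold change -0.66 ± 0.18, adjusted p = 0.00986), as was Dppa4 at a median of 221 TPM (log2 fold change -0.83 ± 0.22, adjusted p = 0.00999).

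Most genes of the primitive endoderm that changed fell in TE. Of 16 on the list 8 were tested, 1 rose and 4 fell (median -1.26). The rises, 12.5%, were near the 12.7% of all genes, and the falls were 50% against 12.4%. Replicates 1 to 3 alone called 0 of the members and replicates 4 to 6 called 5 lower. Col4a1, a chain of basement membrane collagen, stood at 5.38, 10.3 and 17.8 TPM in the morula and 0.7902, 2.51 and 6.74 TPM in TE (log2 fold change -1.72 ± 0.43, adjusted p = 0.00677). The most abundant member that did not pass was the factor Gata6, at 14.8, 21.7 and 36.5 TPM in the morula and 4.11, 12.3 and 25.4 TPM in TE (log2 fold change -0.98 ± 0.41, adjusted p = 0.0806), which passed without TE replicate 3 (-1.20, adjusted p = 0.0339). Sparc, a secreted matrix protein, was the member that rose, from a median of 11.2 to 29.1 TPM (log2 fold change 1.46 ± 0.47, adjusted p = 0.0275). It no longer passed without morula replicate 1 (1.18, adjusted p = 0.0668) or 2 (1.27, adjusted p = 0.062) or TE replicate 4 (1.36, adjusted p = 0.0545) or 6 (1.26, adjusted p = 0.0611).

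Many of the genes that rose from the morula to TE were also high in the ICM of the same stage. The ICM comparison uses the same 6 TE libraries as the one with the morula, so its values are set beside the others only. Krt18 stood at 679, 2258 and 3692 TPM in ICM (1.48 ± 0.36, adjusted p = 0.107 for TE minus ICM, log2), Id2 at 162, 350.4 and 532 TPM (1.30 ± 0.32, adjusted p = 0.113) and Eomes at 9.601, 15.2 and 41.3 TPM (0.47 ± 0.44, adjusted p = 0.771). For Gata3 the ICM libraries held 72.7, 256 and 608 TPM (1.56 ± 0.46, adjusted p = 0.229), for Krt8 1061, 1958 and 4320 TPM (0.80 ± 0.40, adjusted p = 0.519) and for Cdx2 0, 2.66 and 8.898 TPM (1.90 ± 0.87, adjusted p = 0.477). None of the 3 markers passed, and in each the ranges of ICM and TE overlapped. Of the inner cell genes, Nanog stood at 154, 249.7 and 274 TPM in ICM (-1.47 ± 0.36, adjusted p = 0.107) and Pou5f1 at 6.38, 57.3 and 109 TPM (-0.73 ± 0.58, adjusted p = 0.713).

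In all, 18 of 10173 genes (0.177%) passed between TE and ICM, 7 higher and 11 lower in TE, and 1031 had an unadjusted p under 0.05 in limma. The ICM libraries parted by replicate more than those of TE did. ICM replicates 1 to 3 held 2.42 to 2.66 aligned gigabases and 6177 to 6771 genes at 1 TPM or more. ICM replicates 4 to 6 held 3.65 to 4.22 gigabases and 9011 to 10032 genes. Annotated genes summed to 74.6% to 78.9% of the TPM of unnamed assembled loci in ICM replicates 1 to 3, and to 89.2% to 89.4% in ICM replicates 4 to 6. These genes were named after their values were seen. Anxa3, a membrane-binding annexin, stood at 117, 165 and 225 TPM in TE and 0.247, 1.35 and 63.4 TPM in ICM (5.05 ± 0.84, adjusted p = 0.023). Pkp2, a plaque protein of desmosomes, stood at 18.2, 24.1 and 40.8 TPM and 0.126, 1.32 and 5.096 TPM (3.48 ± 0.58, adjusted p = 0.023), and Stx3, a syntaxin of apical membranes, at 16.3, 23.2 and 41.2 TPM and 0.522, 2.22 and 3.59 TPM (3.13 ± 0.53, adjusted p = 0.023). Pkp2 and Stx3 did not overlap between TE and ICM, nor did Anxa3. Anxa3 and Stx3 had also risen from the morula (3.01 ± 0.51 and 1.78 ± 0.39). The change of Pkp2 from the morula did not pass (log2 fold change 0.63 ± 0.33, adjusted p = 0.165), and the morula held it at 11.6, 14.3 and 33.3 TPM. Lgals1 stood at 171, 235 and 666 TPM in ICM (2.32 ± 0.32, adjusted p = 0.0162), Mt1, a metallothionein, at 669, 898 and 1684 TPM against 1615, 2397 and 2638 TPM in TE (1.21 ± 0.21, adjusted p = 0.023), and the other 2 higher genes were Rhod and Hspb2. From the morula, Mt1 rose by 1.001 ± 0.20 (adjusted p = 0.00142), which lay on the 2-fold line and was under it without any one of morula replicates 2 (0.92), 3 (0.87) and 6 (0.997) or TE replicates 1 (0.96), 4 (0.98), 5 (0.97) and 6 (0.94).

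The genes lower in TE than in ICM were led by Spp1, with 2816, 4359 and 6417 TPM in ICM (-3.03 ± 0.44, adjusted p = 0.0162), although it had risen from the morula to TE as given above. Glrx, a glutaredoxin, likewise rose from the morula, from 14.1, 53.1 and 108 TPM to 287, 347 and 547 TPM (log2 fold change 2.91 ± 0.39, adjusted p = 4.5e-05), and was higher still in ICM, at 533, 789 and 930.5 TPM (-1.03 ± 0.19, adjusted p = 0.0424). Tcl1, a cofactor of the kinase AKT, stood at 1.24, 11.7 and 26.1 TPM in TE and 30.4, 107 and 195 TPM in ICM (-3.19 ± 0.61, adjusted p = 0.0424). From the morula it changed by -1.75 ± 0.71 (adjusted p = 0.075), or by -2.35, adjusted p = 0.00706 without morula replicate 3. Jam2, a junctional adhesion molecule, stood at 1.26, 5.097 and 8.8 TPM and 19.6, 33.1 and 47.3 TPM (-2.57 ± 0.49, adjusted p = 0.0424), and Spic, an ETS factor, at 39.2, 158 and 552 TPM and 477, 785 and 1446 TPM (-2.36 ± 0.45, adjusted p = 0.0432). Neither had changed from the morula by a test (log2 fold change 0.34 ± 0.42, adjusted p = 0.584 for Jam2 and log2 fold change 0.089 ± 0.52, adjusted p = 0.918 for Spic). The remaining 6 were Plbd1, Ppm1a, Mgarp, Becn2 and the predicted genes Gm16367 and Gm16513, which moved in parallel and may share reads. With the replicate number as a block 49 genes passed in place of 18. Same-numbered ICM and TE libraries deviated together, but so did libraries of the same set of 3 replicates with another number, and a library correlated best with its own number in 2 of 6 pairs. The count was 64 with quantile normalization, 5 among replicates 1 to 3 and 64 among replicates 4 to 6, the sets that differ in depth and genes detected as given above, and the part of depth in these counts was not tested. It fell to 10, 5 and 0 without ICM replicates 2, 3 and 6 and to 3, 4, 4 and 3 without TE replicates 1, 3, 4 and 6, and rose to 31 without ICM replicate 5.

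**Figure D5:**
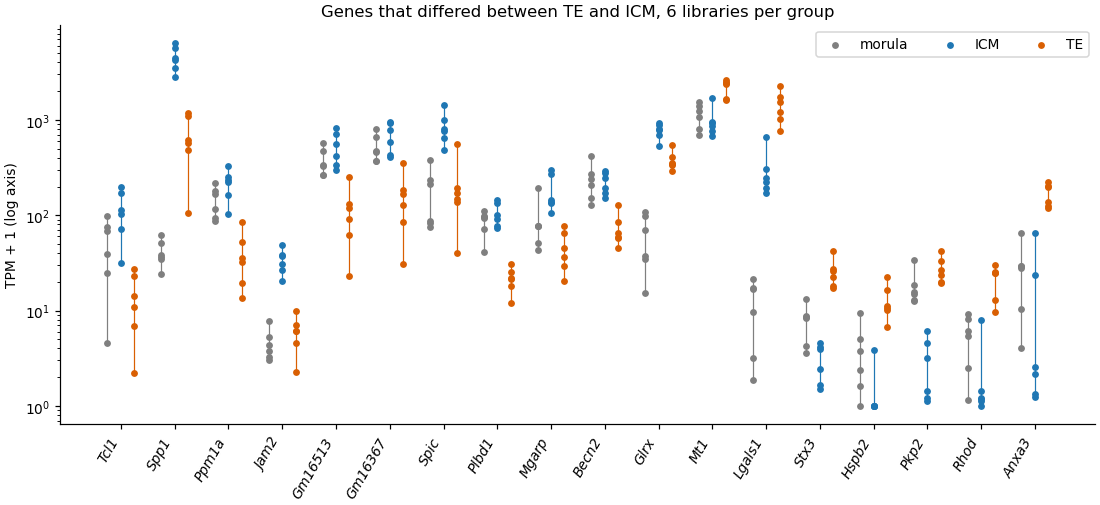
TPM + 1 on a log axis in each of the 6 morula, 6 ICM and 6 TE libraries of SCNT embryos for genes past the test between TE and ICM (adjusted p under 0.05 and at least 2-fold). Anxa3, Pkp2 and Stx3 lie higher in every TE library than in any ICM library, and Spp1 and Jam2 lie lower.

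The Hippo pathway is the switch between inner and outer cells. Of 18 members tested of 21, 2 rose and 3 fell (11.1% and 16.7%, against 12.7% and 12.4% of all genes; median -0.11), with 1 rise and 4 falls in replicates 1 to 3 and 4 rises and 0 falls in replicates 4 to 6. The falls numbered 1 without morula replicate 2 and 1 without TE replicate 2. Stk3, the kinase MST2 at the top of the cascade, was at 0.348, 0.792 and 3.04 TPM in the morula and 5.66, 17.3 and 47.2 TPM in TE, without overlap (log2 fold change 3.12 ± 0.48, adjusted p = 0.00013). Tead2, a DNA-binding partner of YAP, moved from a median of 2.55 to 13.9 TPM (log2 fold change 1.96 ± 0.50, adjusted p = 0.0076). Tead4, the partner needed for the TE, stood at 32.7, 38.7 and 87.3 TPM and 8.95, 20.6 and 66.3 TPM (log2 fold change -0.91 ± 0.41, adjusted p = 0.103) and passed as lower without TE replicate 6 (-1.20, adjusted p = 0.0224). Mob1b, a cofactor of the LATS kinases, moved from 7.88 to 1.29 TPM (log2 fold change -1.99 ± 0.48, adjusted p = 0.00511). Cyr61, a target of YAP, was among the genes on which the replicates disagreed, at 13.5, 27.7 and 98.3 TPM and 0.344, 19.3 and 56.6 TPM. Its change was -4.59 in replicates 1 to 3 and 1.36 in replicates 4 to 6, and the difference passed (adjusted p = 0.00654).

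Over all 12 libraries the FGF receptors Fgfr2 and Fgfr1 rose. On the list of FGF receptors and ERK feedback 14 of 20 were tested, 3 rose and 2 fell (median 0.15). The rises were 21.4% against 12.7% of all genes, and the falls, 14.3%, were near the 12.4% of all genes. Fgfr2, the receptor for Fgf4 in trophoblast, stood at 4.76, 7.25 and 13.9 TPM in the morula and 14.1, 22.01 and 31.3 TPM in TE, without overlap (log2 fold change 1.41 ± 0.35, adjusted p = 0.00584). Fgfr1 moved from 0.0859, 0.571 and 3.39 TPM to 3.501, 5.902 and 11.6 TPM, also without overlap (log2 fold change 1.81 ± 0.46, adjusted p = 0.00695). Dusp4, a phosphatase induced by ERK, moved the other way, from a median of 22.8 to 4.39 TPM (log2 fold change -2.20 ± 0.58, adjusted p = 0.00849). In replicates 1 to 3 alone 0 members rose and 1 fell, and in replicates 4 to 6 alone 5 rose and 2 fell. Targets of BMP signalling parted from each other. Of 12 tested of 24 BMP, Nodal and Wnt genes 2 rose and 2 fell (16.7% each way, against 12.7% and 12.4% of all genes, median 0.42). Replicates 1 to 3 gave 1 rise and 1 fall, and replicates 4 to 6 gave 3 and 2. Id2 rose, as given above, while its relatives Id3 and Id1 fell. Id3 stood at 29.8, 73.5 and 321 TPM and 0.729, 9.196 and 14.3 TPM, without overlap (log2 fold change -3.58 ± 0.60, adjusted p = 0.00031), and Id1 moved from a median of 6.84 to 0.0518 TPM (log2 fold change -2.31 ± 0.54, adjusted p = 0.00389). Pcsk6, a convertase that activates Nodal and BMP precursors, stood at 1.08, 2.54 and 6.02 TPM and 11.2, 14.1 and 18.4 TPM (log2 fold change 2.08 ± 0.38, adjusted p = 0.00058).

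Nutrient uptake and lipid synthesis moved in part. On the cholesterol synthesis list all 20 genes were tested, 6 rose and 0 fell (median 0.48). The rises were 30% against 12.7% of all genes, and the falls 0% against 12.4%. Replicates 1 to 3 gave 7 rises and 2 falls, and replicates 4 to 6 gave 5 and 0. Tm7sf2, a sterol reductase, moved from a median of 0.154 to 13.9 TPM (log2 fold change 3.20 ± 0.47, adjusted p = 0.0001), Nsdhl, a sterol dehydrogenase, from 5.87 to 36.8 TPM (log2 fold change 2.20 ± 0.40, adjusted p = 0.0006) and Mvk, the mevalonate kinase, from 7.93 to 26.4 TPM (log2 fold change 1.60 ± 0.39, adjusted p = 0.00564). The most abundant member, Fdps, which makes farnesyl diphosphate, was lower in TE, at medians of 495 and 264 TPM, without reaching 2-fold (log2 fold change -0.80 ± 0.29, adjusted p = 0.0462). Among amino acid transporters 14 of 20 were tested, 4 rose and 1 fell (median 0.021). These shares were 28.6% and 7.14%, against 12.7% and 12.4% of all genes. Replicates 1 to 3 gave 2 rises and 2 falls, and replicates 4 to 6 gave 3 and 0. Slc38a4, a sodium-coupled transporter imprinted in the placenta, stood at 16.3, 29.2 and 44.8 TPM and 146, 180.2 and 232 TPM, without overlap (log2 fold change 2.63 ± 0.26, adjusted p = 2.2e-06). Slc1a1, a glutamate transporter, fell from 80.8, 106 and 341 TPM to 8.65, 43.5 and 69.2 TPM (log2 fold change -1.95 ± 0.49, adjusted p = 0.00636), with the highest morula value in replicate 2.

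The lysosomal genes differed with the replicates. Of 24 tested of 25 endocytosis and lysosome genes 2 rose and 8 fell (median -0.35). The rises were 8.33% against 12.7% of all genes, and the falls 33.3% against 12.4%. In replicates 1 to 3, 1 rose and 8 fell, whereas in replicates 4 to 6, 7 rose and 4 fell, and the count of falls was 5 without morula replicate 2 or any one of TE replicates 1, 2 and 3. Lamp2, a membrane protein of lysosomes, stood at 138, 181 and 264 TPM in the morula and 26.1, 66.4 and 105 TPM in TE, without overlap (log2 fold change -1.66 ± 0.32, adjusted p = 0.00107). It changed alike in both sets of replicates, by -1.48 and -1.84. Ctsz, a cathepsin protease, moved from 269.9 to 73.4 TPM (log2 fold change -2.21 ± 0.54, adjusted p = 0.00532). Neu1, a sialidase, rose from 1.64, 5.31 and 9.78 TPM to 12.4, 32.5 and 59.4 TPM (log2 fold change 2.38 ± 0.44, adjusted p = 0.00069), as did Npc1, which exports cholesterol from lysosomes, from a median of 3.09 to 11.8 TPM (log2 fold change 1.57 ± 0.42, adjusted p = 0.00964). Cd63, the most abundant member, was high at both stages, at medians of 3615 and 4453 TPM (log2 fold change 0.38 ± 0.13, adjusted p = 0.0439).

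Of 19 tested of 20 genes of glycolysis and glucose transport 3 rose and 4 fell (15.8% and 21.1%, against 12.7% and 12.4% of all genes; median 0.16), with 2 and 3 in replicates 1 to 3 and 6 and 1 in replicates 4 to 6. Hk2, the hexokinase that traps glucose, stood at 3.54, 18.1 and 22.6 TPM in the morula and 70.2, 119 and 168 TPM in TE. All TE libraries were higher (log2 fold change 2.86 ± 0.40, adjusted p = 5.9e-05). Tpi1, triosephosphate isomerase, stood at 48.2, 90.8 and 182 TPM and 295, 469.5 and 839.7 TPM, also without overlap (log2 fold change 2.28 ± 0.34, adjusted p = 0.0001). Pgam1, a mutase of the lower pathway, fell from 270.1, 302 and 489 TPM to 60.1, 116 and 184 TPM (log2 fold change -1.56 ± 0.30, adjusted p = 0.00082), by -2.36 and -0.77 in the 2 sets of replicates, a difference that passed (adjusted p = 0.021). Ldha, lactate dehydrogenase A, stood at 14.1, 27.1 and 75.3 TPM and 0.312, 1.14 and 16.4 TPM, low for a gene that most cells use (log2 fold change -3.07 ± 0.63, adjusted p = 0.00153).

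Where genes of the ribosome and of the respiratory chain passed, they moved in opposite directions. Of 81 genes of cytosolic ribosomal proteins 80 were tested, 0 rose and 30 fell (median -0.88). These falls were 37.5% against 12.4% of all genes. Replicates 1 to 3 gave 37 falls, replicates 4 to 6 gave 24, and quantile normalization gave 16. Rpl39 stood at 566, 674 and 1104 TPM in the morula and 131, 152 and 214 TPM in TE (log2 fold change -2.17 ± 0.20, adjusted p = 1.3e-06). Rpl38 stood at 1051, 1381 and 1639 TPM and 374, 444 and 596 TPM (log2 fold change -1.55 ± 0.16, adjusted p = 3.4e-06). Both are small proteins of the large subunit and neither overlapped between the stages. Rpl41, the smallest of them, moved from a median of 5605 to 1659 TPM (log2 fold change -1.76 ± 0.23, adjusted p = 3.3e-05). Rpl4, one of the longer ones, stood at 2666, 2809 and 2945 TPM and 2303, 2474 and 2684 TPM and did not pass (log2 fold change -0.19 ± 0.10, adjusted p = 0.166). Whether the change went with protein length over the list was not tested. Ribosomal protein genes have many processed pseudogenes, so their reads may be split among copies. Of 75 genes of the respiratory chain and ATP synthase, all tested, 14 rose and 0 fell (median 0.52), with 21 and 18 rises in the 2 sets of replicates and 20 with quantile normalization. Over all 12 libraries the rises were 18.7% against 12.7% of all genes, and 61 genes did not pass. Ndufb8, a subunit of complex I, stood at 209.8, 373 and 433 TPM and 1065, 1103 and 1184 TPM, with a narrow range in TE (log2 fold change 1.73 ± 0.18, adjusted p = 3.6e-06). Ndufs4, of the same complex, moved from a median of 25.3 to 89.2 TPM (log2 fold change 1.79 ± 0.25, adjusted p = 5e-05), and Cox5a, of complex IV, stood at medians of 1555 and 1733 TPM and did not pass (log2 fold change 0.44 ± 0.18, adjusted p = 0.0743).

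Of 29 tested of 30 cell cycle genes 3 rose and 5 fell (10.3% and 17.2%, against 12.7% and 12.4% of all genes; median -0.63), with 2 and 9 in replicates 1 to 3, 2 and 4 in replicates 4 to 6, and 3 falls without morula replicate 3 or TE replicate 1. Ccne1, the cyclin of entry into S phase, stood at 174, 367 and 785 TPM in the morula and 14.8, 76.5 and 93.02 TPM in TE, without overlap (log2 fold change -2.74 ± 0.42, adjusted p = 0.00014). Ccna2, the cyclin of S and G2, stood at 254, 311 and 403 TPM and 44.99, 80.2 and 134 TPM (log2 fold change -1.92 ± 0.24, adjusted p = 1.8e-05), and Cdk1, the mitotic kinase, moved from a median of 348 to 127 TPM (log2 fold change -1.24 ± 0.23, adjusted p = 0.00067). These 3 genes did not overlap between the stages. In contrast Ccnb2, a mitotic cyclin, stood at 161, 262 and 301 TPM and 432, 502 and 758 TPM (log2 fold change 1.18 ± 0.21, adjusted p = 0.00046) and Cdk2 moved from 56.3 to 160.3 TPM (log2 fold change 1.32 ± 0.27, adjusted p = 0.00132). The inhibitor Cdkn1b, p27, appeared at a low level, from 0, 0.4798 and 0.764 TPM to 1.46, 4.31 and 14.1 TPM (log2 fold change 2.02 ± 0.44, adjusted p = 0.00233).

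Of the 21 genes of the p53 and stress response, all tested, 0 rose and 3 fell (median -0.82), with 0 and 9 in replicates 1 to 3, 3 and 1 in replicates 4 to 6, and 1 fall without TE replicate 1. Over all 12 libraries the falls, 14.3%, were near the 12.4% of all genes. Trp53, the gene of p53, stood at 77.8, 130.3 and 143 TPM in the morula and 18.5, 58.5 and 108 TPM in TE (log2 fold change -1.22 ± 0.33, adjusted p = 0.011), and changed by -0.93, adjusted p = 0.0145 without TE replicate 1, under 2-fold. Cdkn1a, the cell cycle inhibitor p21 induced by p53, stood at 180.3, 228 and 312 TPM and 61.9, 118 and 142 TPM (log2 fold change -1.06 ± 0.22, adjusted p = 0.00177). Its groups did not overlap, but the change was under 2-fold without morula replicate 3 (-0.98, adjusted p = 0.00458) or TE replicate 1 (-0.90, adjusted p = 0.00236). Gadd45b, a stress-induced regulator of kinases, stood at 8.38, 26.1 and 46.8 TPM and 0.146, 2.07 and 5.31 TPM, with falls of similar size in both sets of replicates, -3.07 and -3.40 (log2 fold change -3.23 ± 0.57, adjusted p = 0.00047). Bax, which opens the mitochondrial membrane in apoptosis, was at medians of 422 and 257 TPM and did not reach 2-fold (log2 fold change -0.82 ± 0.26, adjusted p = 0.0229).

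Most maternal transcripts lay below a mean of 1 TPM. Of 22 oocyte genes 9 were tested, 2 rose and 3 fell (median -0.32). These shares were 22.2% and 33.3%, against 12.7% and 12.4% of all genes. Replicates 1 to 3 gave 1 rise and 1 fall among 6 tested, and replicates 4 to 6 gave 3 and 2 among 11. Summed over the list, the level was nevertheless higher in TE, at 1106, 2837 and 5455 TPM against 343.9, 1133 and 1473 TPM in the morula. In ICM the sum was 2963, 3313 and 6612 TPM. Padi6, of the cytoplasmic lattices of the egg, stood at 4.65, 19.2 and 30.4 TPM in the morula and 0.0687, 0.604 and 6.27 TPM in TE (log2 fold change -2.99 ± 0.57, adjusted p = 0.00088) and Zp3, of the zona pellucida, moved from a median of 4.19 to 0.0911 TPM (log2 fold change -2.12 ± 0.41, adjusted p = 0.00103). Ooep, of the subcortical maternal complex, moved upwards, from 9.11, 12.98 and 15.4 TPM to 34.9, 45.01 and 67.5 TPM, without overlap (log2 fold change 1.76 ± 0.27, adjusted p = 0.00015). On the list of H3K9 methylation and chromatin modifiers, which also holds the MYC factors the study examined, 26 of 28 were tested, 4 rose and 1 fell (median 0.33). The rises, 15.4%, were near the 12.7% of all genes, and the falls were 3.85% against 12.4%. Replicates 1 to 3 gave 4 rises and 1 fall, and replicates 4 to 6 gave 3 and 0. Mycn, the MYC family factor N-Myc, stood at 0, 0.217 and 1.77 TPM and 4.45, 17.2 and 53.6 TPM, without overlap (log2 fold change 3.54 ± 0.58, adjusted p = 0.00023). Myc, its relative, stood at 0.997, 13.2 and 49.8 TPM and 0.05796, 2.87 and 9.38 TPM (log2 fold change -2.002 ± 0.72, adjusted p = 0.0459) and changed by -3.87 in replicates 1 to 3 and -0.13 in replicates 4 to 6. It kept its call only without morula replicate 4 or TE replicates 5 or 6, and the adjusted p lay between 0.0555 and 0.111 without any of the other 9 libraries. Max, the partner of both, stood at medians of 11.5 and 17.8 TPM (log2 fold change 0.67 ± 0.43, adjusted p = 0.266) and Mcrs1, a subunit of chromatin complexes, at 164 and 113 TPM (log2 fold change -0.50 ± 0.30, adjusted p = 0.224), both chosen after their values were seen. Dnmt3b, a DNA methyltransferase, moved from 3.99, 9.44 and 22.8 TPM to 22.9, 29.02 and 42.8 TPM (log2 fold change 1.56 ± 0.37, adjusted p = 0.00424) and Tet2, which oxidises methylcytosine, from a median of 14.2 to 54.5 TPM (log2 fold change 1.45 ± 0.44, adjusted p = 0.0197).

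Beside the SCNT libraries stand 2 TE libraries of fertilized control blastocysts from another experiment of the series, given as single values with no test. The 2 libraries held 1.00 and 2.23 aligned gigabases and 10614 and 10928 genes at 1 TPM or more. The part of depth and of genes detected in the values below was not tested. In these libraries Cdx2 stood at 68.2 and 54.6 TPM and Gata3 at 1582 and 1979 TPM. Krt18 stood at 12846 and 11171 TPM and Eomes at 76.96 and 66.4 TPM. Each of these values lay above the highest of the 6 SCNT TE libraries. Krt8 was at 5944 and 5099 TPM and Tspan8 at 1624 and 1090 TPM, within the range of the SCNT libraries. Naalad2, among the largest falls, was at 69.6 and 60.2 TPM there, above all SCNT TE libraries and below all morula libraries. Lgals1 was at 459 and 648 TPM, below all SCNT TE libraries. In the study these control embryos were injected with a random control morpholino oligonucleotide, and its fertilized embryos had C57BL/6j mothers and fathers. The libraries of fertilized and SCNT embryos thus differ in experiment, injection and oocyte strain as well as in the origin of the embryo, which cannot be told apart.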

How the data were processed

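RNA-seq gene tables of 12 SCNT libraries were compared, with 6 NT-ICM, 6 NT-8cell, the cumulus cell and 2 fertilized control TE libraries set beside them. All 53 SCNT libraries entered an alternative fit, and the other 10 libraries of fertilized embryos were not used. Per the submitters' processing notes the tools were cutadapt 1.16, HISAT2, StringTie, Cufflinks and deepTools with mm10. The tables deposited by the authors give TPM, FPKM and Coverage per gene, and no read counts, so no count model was run. In the deposited tables the TPM of assembled loci without a gene name sum to 1000000, while 24421 reference symbols stand beside them. Only these named genes were used, their TPM summed per symbol. The deposited FPKM and the Coverage (a signal of mean read depth) served only to compute aligned gigabases, since depth in reads is not given.

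Morula and TE were compared with limma 3.58.1 in R 4.3.3, with a trend on mean expression, on log2(TPM + 1) over genes with a mean of at least 1 TPM. The threshold was an adjusted p (Benjamini-Hochberg) under 0.05 with at least a 2-fold change, and fold changes of low genes are understated on this scale. TE and ICM, and the difference between replicates 1 to 3 and 4 to 6, were tested the same way. The limma step was tested on simulated data. Tables and plots were made in Python 3.11.15 with numpy 2.4.6, pandas 2.3.3 and matplotlib 3.10.9.

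Genes were named by a rule. It takes the 3 markers, the 10 largest rises and 10 largest falls among called genes without overlap and with a mean of at least 20 TPM at the higher stage, up to 4 members of each list past the threshold in each direction, the 2 most abundant members that did not pass, and the 5 genes with the highest mean TPM in TE. Predicted genes were left out of the largest changes. Of these the text describes a selection, and 2 genes are not reported here. The members and the 23 gene lists were chosen with earlier results of these data known. Same-numbered morula and TE libraries did not all deviate together (r from -0.121 to 0.233), so the numbers were not used as pairs. Same-numbered ICM and TE libraries did (r from 0.124 to 0.283), but ICM and TE libraries of the same set of 3 replicates with another number correlated about as well (mean r from 0.111 to 0.243). The own number gave the highest r in 2 of 6 pairs and no label states a shared batch, so these values do not show pairing by number. Alternatives were TPM rescaled over annotated genes, quantile normalization, another pseudocount, other filters, other sets of libraries, no trend, the largest entry of each symbol, a replicate block, a term for the 2 sets of replicates, and each library left out in turn. The labels do not say which libraries were sequenced at which of the 2 companies, so no company term was used.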

Additional observations from a re-analysis of the deposited data

Results flagged for a closer look

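Over the 126 genes of the text, 252 groups of 6 libraries were checked for a highest or lowest library whose gap to the nearest other one exceeds Dixon's 95% critical value on the log2(TPM + 1) scale, which chance alone gives in about 1 in 20 groups. It was found in 25 groups, and 10 of these were morula replicate 2. That library was higher than the other 5 morula libraries for Gpr161 (722 TPM), Gulo (808 TPM), Tbx3 (98.4 TPM), Pou5f1 (351 TPM), Pgam1 (489 TPM) and Slc1a1 (341 TPM). It was lower for Anxa2 (395 TPM), Hk2 (3.54 TPM), Ubb (2565 TPM) and Gm1821 (2730 TPM). Morula replicate 3 gave 6 more, all higher than the rest, for Gata2 (2.67 TPM), Dsc2 (1.61 TPM), Tm7sf2 (2.58 TPM), Arg2 (109 TPM), Sp110 (679.8 TPM) and Lgals3 (60.9 TPM). Morula replicate 1 stood apart for Trp53 (77.8 TPM, lower) and Mycn (1.77 TPM, higher). Among TE libraries, replicate 5 was high for Hand1 (1.67 TPM) and Padi6 (6.27 TPM) and low for Spp1 (104 TPM). TE replicate 1 was low for Epcam (831 TPM) and Cdkn1a (61.9 TPM), replicate 2 was high for Arg2 (16.5 TPM) and replicate 4 for Slc25a41 (5.27 TPM).

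The change from morula to TE differed between replicates 1 to 3 and replicates 4 to 6 in 9 genes of the text, by the test of that difference in limma. As the change in replicates 4 to 6 minus that in replicates 1 to 3 on the log2 scale, it was 5.95 for Cyr61, 2.51 for F11r, 2.21 for Slc9a3r1, 2.08 for Aqp9 and 1.59 for Pgam1. It was -1.78 for Actb, -1.64 for Sall4, -1.52 for Tspan8 and -1.12 for Dppa5a. The TE libraries of the 2 sets also differ in depth and in the TPM of annotated genes relative to assembled loci, and the part of these in the differences was not tested.

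TE and ICM differed, in a comparison that shares its TE libraries with the one above, in 18 genes. The log2 difference of TE minus ICM was 5.05 for Anxa3, 3.60 for Rhod, 3.48 for Pkp2, 3.27 for Hspb2, 3.13 for Stx3, 2.32 for Lgals1 and 1.21 for Mt1. It was -3.19 for Tcl1, -3.03 for Spp1, -2.62 for Ppm1a, -2.57 for Jam2, -2.45 for Gm16513, -2.37 for Gm16367, -2.36 for Spic, -2.27 for Plbd1, -2.03 for Mgarp, -1.64 for Becn2 and -1.03 for Glrx.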

How the results depend on the processing

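The comparison of TE with the morula gave 2602 genes and between 1826 and 2861 under its 25 alternatives, all within 1.5 times, with 2324 to 2622 when 1 library was left out. With the replicate block it gave 2564, but same-numbered morula and TE libraries did not all deviate together, and in none of the 6 pairs did a library correlate best with its own number. The comparison of TE with ICM depended on the processing. Its 18 genes were 6 with a pseudocount of 0.1, 64 with quantile normalization, 49 with the replicate block, 5 in replicates 1 to 3 and 64 in replicates 4 to 6, and 0 to 31 when 1 library was left out (0 without ICM replicate 6), with a move of over 1.5 times without ICM replicates 2, 3, 5 or 6 or TE replicates 1, 3, 4 or 6. Of the 102 genes of the text that passed from morula to TE, 68 stayed past the threshold under every alternative and 0 turned in sign, and 6 were lost without 1 library. Of the 24 that did not pass, 8 turned in sign under an alternative. With quantile normalization Anxa2 was at 0.11 and Ftl1 at -0.030. In replicates 1 to 3 Cdx2 was at -0.24, Tfap2c at -0.84, F11r at -0.26 and Spic at -0.18, and in replicates 4 to 6 Aqp3 was at 0.14 and Cyr61 at 1.36. Without 1 library Tfap2c lay between -0.11 and 0.53 and Spic between -0.27 and 0.48. The cause was not tested for any of these. Of the 46 counts of list members, 30 moved by over 1.5 times under some alternative. No count model was run, since the values are not counts. The pseudocount of 0.1 moved the median log2 fold change of all genes from -0.026 to -0.11. Depth in reads is unknown, and in libraries of 10 cells a gene listed at 0 may be a missed one, which bears on the 371 lower genes with a TE library at 0.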

Other observations

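Beside Xkr9, 12 genes went from at least 5 TPM in every morula library to under 1 TPM in every TE library. Their levels are given as the lowest, median and highest of the 6 morula libraries and the highest of the 6 TE libraries, with no test, since they were chosen after their values were seen. Hsd17b1, which makes estradiol, went from 5.75, 11.3 and 17.5 TPM to at most 0.243 TPM. Nppc, the natriuretic peptide that holds oocytes in meiotic arrest, went from 8.53, 10.1 and 39.1 TPM to at most 0.621 TPM. Nanos3, an RNA-binding protein of germ cells, went from 6.68, 10.7 and 27.9 TPM to at most 0.553 TPM. The group also held enzymes of metabolism. Agmat, which breaks down agmatine, went from 9.24, 13.1 and 15.2 TPM to at most 0.825 TPM. Dgat2, which makes triglycerides, went from 6.21, 15.1 and 54.2 TPM to at most 0.531 TPM. Apom, an apolipoprotein, went from 5.72, 11.7 and 20.2 TPM to at most 0.551 TPM. Of the rest, Tnfsf13b, the cytokine BAFF, went from 14.9, 21.2 and 27.3 TPM to at most 0.564 TPM, and Hmgn3, a nucleosome-binding protein, went from 5.17, 13.1 and 55.6 TPM to at most 0.555 TPM. Dynap, Pin1rt1 and Tmem56 also belonged to the group.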
